A study of Mus musculus with 17 samples.

Results

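The 10 genes described here encode plasma membrane amino acid transporters or their shared subunit: Slc3a2, Slc7a5, Slc7a8, Slc7a1, Slc1a5, Slc1a4, Slc38a2, Slc38a1, Slc6a9 and Slc6a14. They were chosen by symbol with earlier results of these data known, and each matched 1 of the 43430 mouse gene IDs in the count tables. The series holds 17 RNA-seq libraries of alveolar type 2 (AT2) cells, the surfactant-making cells of the lung alveolus, which were purified by flow cytometry. All mice were C57BL/6J and 2 months old. A poly(A) set of 8 libraries was taken from uninjured (naive) mice at 24 h, with 4 libraries after vehicle, whose titles also name saline, and 4 after ISRIB. ISRIB is a small molecule that restores eIF2B activity when the integrated stress response has lowered it. A total-RNA set of 9 libraries comprised 4 from naive mice and 5 collected 14 days after bleomycin, which damages the alveolar epithelium and is followed by fibrosis. Naive and bleomycin libraries alike carry vehicle as their treatment label and saline in their titles. No dose of either drug is given in the labels, and the libraries are numbered without a statement that each came from a separate mouse. P-values therefore measure the spread between these libraries, part of which may be technical. The kits differed between the experiments, so each comparison was made within its own kit.

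Slc3a2 encodes the CD98 heavy chain, a glycoprotein that carries no substrate itself and brings SLC7 light chains to the cell surface. With the light chains encoded by Slc7a5 and Slc7a8 it forms exchangers of large neutral amino acids such as leucine. Slc7a1 encodes an importer of arginine and lysine that works without a heavy chain. Slc1a5 and Slc1a4 encode exchangers of small neutral amino acids, glutamine among the main substrates of the first and alanine, serine and cysteine among those of the second. Slc38a2 and Slc38a1 encode sodium-coupled importers of small neutral amino acids, Slc6a9 a glycine transporter, and Slc6a14 a concentrative importer of neutral and cationic amino acids found on apical epithelial membranes. Several of these genes are known targets of ATF4, the transcription factor whose translation rises when the integrated stress response is active. Leucine and arginine brought in by such carriers are read by mTORC1, and uncharged tRNA is read by the kinase GCN2.

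On GRCm38, the Slc3a2 model lies at chr19:8706882-8723369 on the minus strand, Slc1a5 at chr7:16781340-16798274 on the plus strand, and Slc6a9 at chr4:117834506-117875198 on the plus strand. Slc38a1 and Slc38a2 are neighbours on the minus strand of chromosome 15, at chr15:96571418-96642913 and chr15:96687392-96699730, with 44478 bases between them. Of the 5141 exon bases of Slc6a9, 1555 are shared with models on the opposite strand (B4galt2, Ccdc24 and Gm17114). The other 9 genes share no exon base with another model.

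Promoter windows of 250 bases before to 50 bases after a gene's start were taken from RefSeq on GRCm38.p6, and 7 of the 10 genes had at least 1. Slc1a5, Slc7a5 and Slc38a1 had none there. On either strand, the element TGATGNAA, to which ATF4 binds with C/EBP partners, was present in a window of Slc1a4 and in no window of the other 6 genes. It was present in 3.97% of all 32851 windows of that length. The stretch is shown because ATF4 lies downstream of the pathway that ISRIB acts on. It spans chr11:20332710-20332963 and is written on the gene's own minus strand, with the element in capitals at its end, across the start of the gene.

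Slc1a4 promoter: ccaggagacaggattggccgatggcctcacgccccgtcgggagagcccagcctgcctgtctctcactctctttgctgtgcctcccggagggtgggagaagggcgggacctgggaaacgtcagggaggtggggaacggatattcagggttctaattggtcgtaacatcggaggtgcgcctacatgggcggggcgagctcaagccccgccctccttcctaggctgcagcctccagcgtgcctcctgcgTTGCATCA

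The AP-1 element TGANTCA was present in a window of Slc7a1 and of Slc6a14 (7.81% of all windows), and the NRF2 element TGACNNNGC in windows of Slc6a9, Slc7a1 and Slc38a2 (12.4%). The E-box CACGTG (7.15%) and the cyclic AMP element TGACGTCA (1.79%) were in none of the windows of the 7 genes. A match describes these letters only.

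Total counts ran from 10493574 to 15727139 with poly(A) selection and from 3295257 to 6333166 by the total-RNA kit, of which 15.7% to 29.2% fell on ribosomal-RNA-like gene models. AT2 identity was checked on 9 markers (Sftpc, Sftpb, Sftpa1, Sftpd, Abca3, Lamp3, Napsa, Etv5 and Slc34a2), all detected. Their summed level was 173720 to 185910 CPM (counts scaled to library size) in the poly(A) libraries and 79162 to 86488 CPM in the naive libraries. In bleomycin 1 and bleomycin 2 it was 48951 and 57553 CPM, and in the other 3 bleomycin libraries 72758 to 86923 CPM. Summed fibroblast markers were highest in the same pair, at 51.3 CPM in bleomycin 1 and 116 CPM in bleomycin 2, against 17.7 to 25.5 CPM in the other 3 and 2.68 to 9.39 CPM in the naive libraries.

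Levels were compared between genes as CPM per kilobase of exon, with all annotated exons of a gene merged into 1 length. That length can exceed the transcripts in use, which lowers a gene on this scale. It was 17236 bases for Slc38a1 and 8838 for Slc38a2, against 3529 for Slc3a2. On plain CPM the mean of Slc38a2 was above that of Slc3a2 in all 4 groups. It was 232 against 171 in vehicle, 257 against 218 in ISRIB, 127 against 90.6 in naive and 121 against 120.1 in bleomycin. Per kilobase, Slc3a2 was the highest of the 10 in all 4 groups, at 48.5 ± 2.31 CPM per kilobase in vehicle, 61.7 ± 6.21 in ISRIB, 25.7 ± 2.90 in naive and 34.0 ± 3.47 in bleomycin (SD, n = 4, 4, 4 and 5). Its range did not overlap that of the next gene in any group. Slc1a5, Slc6a14 and Slc38a2 came next in each group, and in vehicle they stood at 33.7 ± 2.63, 30.3 ± 1.55 and 26.3 ± 2.02. The ranges of Slc1a5 and Slc6a14 overlapped in vehicle, those of Slc6a14 and Slc38a2 in naive, and those of all 3 in ISRIB and in bleomycin. In bleomycin Slc6a14 was nevertheless above Slc1a5 within each of the 5 libraries. Slc6a9 (10.4 ± 0.429 in vehicle) and Slc7a5 (5.20 ± 0.815) followed, with ranges apart in every group except bleomycin. Slc1a4 and Slc7a1 were near 1 CPM per kilobase, at 1.36 ± 0.493 and 1.11 ± 0.185 in vehicle, with overlapping ranges in all 4 groups. Slc38a1 was lower, at 0.232 ± 0.0637 in vehicle, and its range met that of Slc7a8 in naive and bleomycin. On this scale its neighbour Slc38a2 was thus among the 4 highest genes of the set, and Slc38a1 was the second lowest in each group.

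Slc7a8, the other light chain of large neutral amino acid exchange, was close to undetected. It had 7 raw counts in total over the 4 vehicle libraries, 5 over ISRIB, 2 over naive and 6 over bleomycin. For scale, 3 counts over the 4 vehicle libraries would be 0.0621 CPM. Slc7a8 was below the filter on low counts in both comparisons and was not tested.

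**Figure D1:**
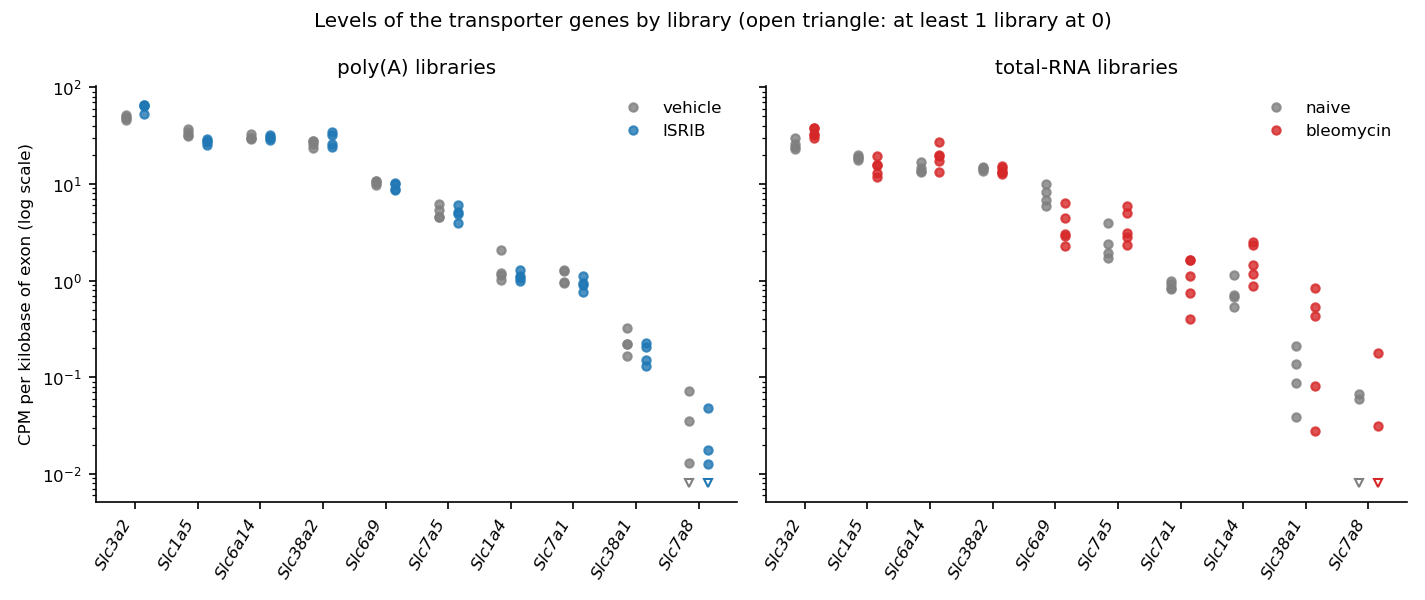
Level of each gene in CPM per kilobase of exon on a log axis, 1 point per library, poly(A) libraries on the left and total-RNA libraries on the right; triangles at the foot mark libraries with no count. On this scale Slc3a2 is the highest gene in all 4 groups and Slc7a8 the lowest.

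The first comparison asked which transporter genes differ 24 h after ISRIB in uninjured AT2 cells. The CD98 heavy chain gene Slc3a2 was higher after ISRIB by 27.3%, and the glutamine exchanger gene Slc1a5 was lower by 19.5%. These were the only 2 of the 9 tested genes past the threshold (adjusted p under 0.05, edgeR quasi-likelihood F test with Benjamini-Hochberg adjustment over all genes tested). Of all 12054 genes tested, 2.2% were called, 1.1% higher and 1.1% lower. The median log2 fold change was -0.14 over the 9 genes, with 3 above 0 and 6 below, and -0.00014 over all genes tested.

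Slc3a2 was at 161, 170.3, 174 and 180.0 CPM in vehicle 1 to 4 and at 226, 185, 231 and 229 CPM in ISRIB 1 to 4. Every ISRIB library was above every vehicle library, and ISRIB 2 was the nearest to vehicle. The means were 171 ± 8.15 and 218 ± 21.9 CPM (SD, n = 4 each), which gave a log2 fold change of 0.35 with SE 0.07 and adjusted p = 0.0137. In 14 of the 15 alternatives the call held, with adjusted p from 2.06e-06 to 0.0494. Without vehicle 1 it was lost, at a log2 fold change of 0.32 and adjusted p = 0.0566. The 15 include leaving out ISRIB 2 and ISRIB 4 together, a choice made after the values were seen, which removes the library nearest to vehicle.

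Slc1a5 was at 134, 155, 143 and 130.2 CPM in vehicle 1 to 4 and at 112, 121, 105 and 115 CPM in ISRIB 1 to 4. The groups did not overlap, and all 4 ISRIB libraries were the lower. The means were 141 ± 10.995 and 113 ± 6.33 CPM, a log2 fold change of -0.31 with SE 0.06 and edgeR adjusted p = 0.0147. Without vehicle 2, the highest library, it missed the threshold at -0.26 and adjusted p = 0.0582. In the other 14 alternatives it passed. Groups did not overlap for these 2 of the 9, 1 higher and 1 lower, against 8.65% of all genes tested, 4.26% higher and 4.39% lower.

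None of the partners or close relatives of these genes passed. Slc7a5, the main light chain partner of Slc3a2, was at 16.9 to 23.2 CPM in vehicle and 14.7 to 22.2 CPM in ISRIB. Its log2 fold change was -0.07 (95% interval -0.34 to 0.19, edgeR adjusted p = 0.849), an interval that leaves room for changes of either sign. Slc1a4, the relative of Slc1a5, was at 4.65, 3.98, 8.19 and 4.46 CPM in vehicle and 4.15, 4.32, 3.85 and 5.001 CPM in ISRIB, so that vehicle 3 stood above all others. Its log2 fold change was -0.33 (-0.79 to 0.13, adjusted p = 0.497), and -0.01 without vehicle 3.

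Slc38a2 was at 209, 227, 246 and 247 CPM in vehicle 1 to 4 and at 282, 214, 305 and 228 CPM in ISRIB 1 to 4. ISRIB 1 and ISRIB 3 were above every vehicle library, while ISRIB 2 and ISRIB 4 lay within the vehicle range. The log2 fold change was 0.15 (-0.05 to 0.34, edgeR adjusted p = 0.471). ISRIB 2 and ISRIB 4 also had the lowest summed AT2 markers of their group (173720 and 175390 CPM, against 185890 and 185910 CPM). Their summed airway markers were 2836 and 2044 CPM, against 3343 to 3743 CPM in the other poly(A) libraries. The pair also stood apart over all genes, with a chi-square per degree of freedom of 7.80 to 8.94 against ISRIB 1 or ISRIB 3 and of 4.38 between themselves. With that pair left out, Slc38a2 was at 0.34 with adjusted p = 0.0242, Slc3a2 at 0.42 and Slc1a5 at -0.37. This choice was made after the values were seen, and a link between marker level and transporter level was not tested.

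The remaining genes did not pass after ISRIB. Slc7a1, the arginine and lysine importer, was at 10.8 to 14.8 CPM in vehicle and 8.81 to 12.8 CPM in ISRIB, with a log2 fold change of -0.28 (-0.57 to 0.01). Slc6a9, the glycine transporter, was at 50.6 to 55.7 and 44.3 to 52.9 CPM, with -0.14 (-0.29 to 0.01). Slc38a1 was at 2.89 to 5.52 and 2.28 to 3.92 CPM, with -0.35 (-0.85 to 0.15). Slc6a14 gave the narrowest interval of the 9, at 100.8 to 112 CPM in vehicle and 98.1 to 111 CPM in ISRIB, with 0.0012 (-0.12 to 0.12), an estimate whose sign changed in 7 of 15 alternatives. Their edgeR adjusted p ran from 0.334 for Slc7a1 to 0.996 for Slc6a14.

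**Figure D2:**
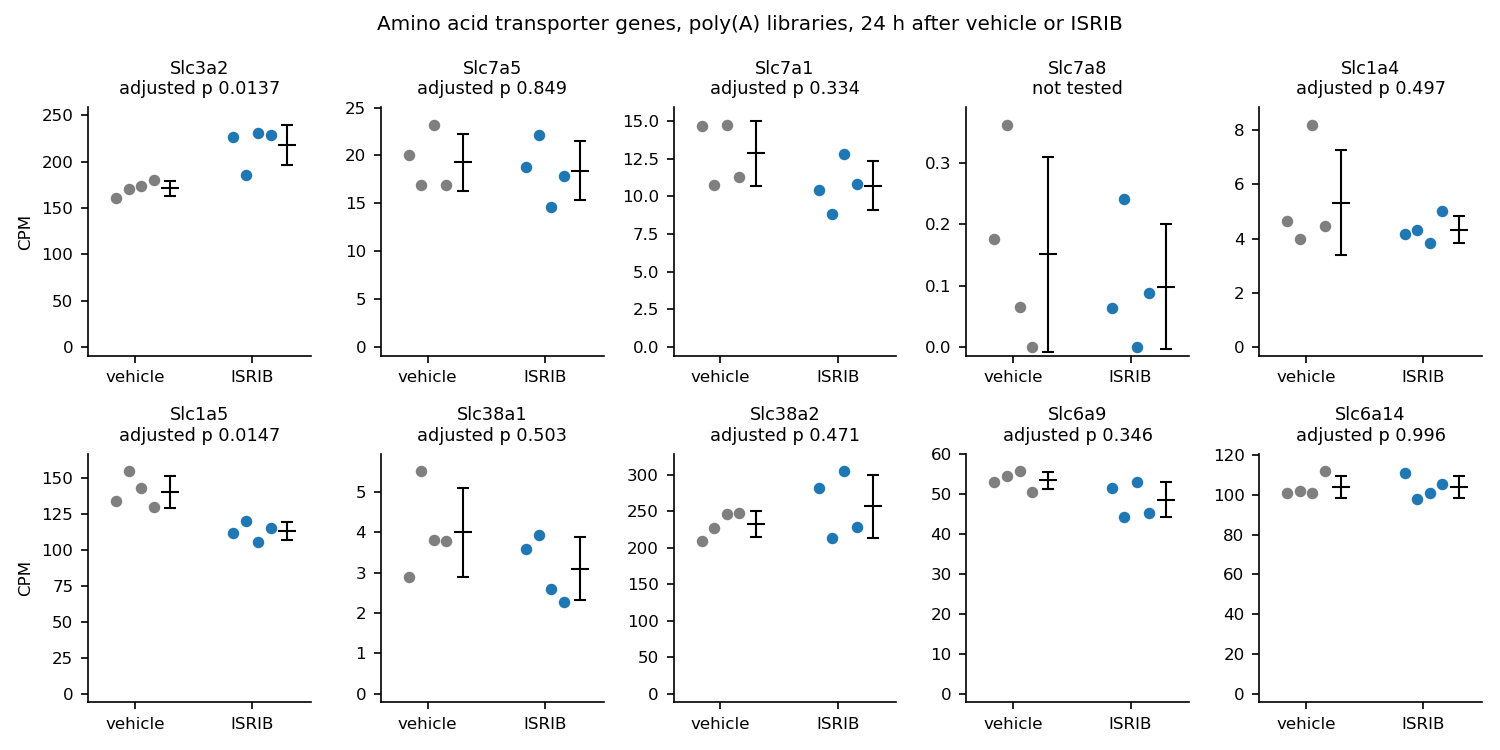
CPM of each gene in the 4 vehicle and 4 ISRIB libraries, 1 point per library in replicate order, with the group mean and SD beside the points and the edgeR adjusted p above each panel. The groups are apart for Slc3a2 (higher after ISRIB) and Slc1a5 (lower).

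The second comparison asked which transporter genes differ 14 days after bleomycin. The glycine transporter gene Slc6a9 was lower, with a log2 fold change of -1.001, from 39.5 to 19.4 CPM, and Slc3a2 was higher by 32.2%, from 90.6 to 120.1 CPM. Of the 9 tested genes, 2 passed (1 higher and 1 lower), while 20.5% of all 11223 genes tested were called, 11.2% higher and 9.31% lower. The share of the set (22.2%) is near that background. The median log2 fold change was 0.40 over the 9 genes, with 6 above 0 and 3 below, against 0.0026 over all genes tested. Among the 6, Slc1a4 and Slc38a1 passed the filter on low counts only with their bleomycin libraries, which favoured estimates above 0. In sorted bulk samples, fewer cells of a type and less RNA per cell cannot be told apart, and this holds for every value that follows.

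Slc6a9 was at 51.0, 41.9, 35.1 and 30.1 CPM in naive 1 to 4 and at 11.6, 15.5, 22.6, 14.9 and 32.3 CPM in bleomycin 1 to 5. Bleomycin 5 lay above naive 4, and the other 4 bleomycin libraries were below every naive library. The means were 39.5 ± 9.04 (SD, n = 4) and 19.4 ± 8.26 CPM (n = 5), with an SE of 0.24 on the log2 fold change and edgeR adjusted p = 0.00720. Over all 16 alternatives Slc6a9 stayed lower and past the threshold, with log2 fold changes of -1.29 to -0.73 and adjusted p of 8.94e-06 to 0.0366. Without bleomycin 1 and bleomycin 2, the pair with the lowest AT2 and highest fibroblast markers, it was -0.73 with adjusted p = 0.0311. Of the models that overlap Slc6a9 on the other strand, B4galt2 had 91 counts over the 9 libraries and a log2 fold change of -0.12 (adjusted p = 0.899), and the other 2 were below the filter. Whether the counting used strand was not stated, so it is not known how reads of the overlapping exons were counted or whether they were left out.

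Slc3a2 was at 81.2, 85.7, 105 and 90.9 CPM in naive 1 to 4 and at 133, 116, 114, 132 and 105 CPM in bleomycin 1 to 5. The groups met at naive 3 and bleomycin 5, and the other bleomycin libraries were above every naive library. The means were 90.6 ± 10.2 and 120.1 ± 12.2 CPM, a log2 fold change of 0.40 with SE 0.12 and edgeR adjusted p = 0.0217. The call was lost without naive 1 (adjusted p = 0.0918), naive 2 (0.0748) or naive 4 (0.0649), with log2 fold changes of 0.35 to 0.40. It held in the other 13 alternatives, and without bleomycin 1 and bleomycin 2 it was 0.37 with adjusted p = 0.0374. No gene of the set had groups that did not overlap, against 19.7% of all genes tested, 10.4% higher and 9.35% lower.

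Slc1a4 and Slc38a1, both low in naive cells, had the largest positive estimates of the set, and neither passed. Their counts were small, 7 to 54 per total-RNA library for Slc1a4 and 2 to 55 for Slc38a1. Each passed the filter on low counts only with its bleomycin libraries, so a higher estimate was favoured in advance. Slc1a4 was at 2.68, 2.78, 4.504 and 2.09 CPM in naive 1 to 4 and at 9.26, 9.74, 5.73, 4.64 and 3.48 CPM in bleomycin 1 to 5, a log2 fold change of 1.12 (95% interval 0.23 to 2.02) with edgeR adjusted p = 0.0707. The 4 bleomycin libraries other than bleomycin 5 were above every naive library. Its adjusted p was 0.0498 with DESeq2, 0.0474 without bleomycin 4 and 0.0372 without bleomycin 5, and without bleomycin 1 and bleomycin 2 its log2 fold change was 0.62 with adjusted p = 0.354. Slc38a1 was at 0.671, 1.496, 3.60 and 2.38 CPM in naive 1 to 4 and at 14.5, 9.20, 1.39, 7.43 and 0.475 CPM in bleomycin 1 to 5. Bleomycin 1, 2 and 4 were above every naive library, and bleomycin 5 was below them all. The log2 fold change was 1.66 (0.10 to 3.22) with edgeR adjusted p = 0.125. It passed without bleomycin 5 (0.0323) and without the filter on low counts (0.0133), and it fell below the filter when bleomycin 1 or bleomycin 2, or both, were left out. The part of marker levels in these values was not tested.

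Slc6a14 was at 57.4, 50.2, 45.0 and 46.5 CPM in naive 1 to 4 and at 68.2, 92.6, 66.1, 45.8 and 58.6 CPM in bleomycin 1 to 5. All bleomycin libraries but bleomycin 4 exceeded the highest naive library. The log2 fold change was 0.42 (0.07 to 0.77) with edgeR adjusted p = 0.0848, and adjusted p was 0.0182 without bleomycin 4 and 0.0363 without the filter on low counts. Slc1a5 was at 76.5, 82.7, 78.4 and 73.6 CPM in naive 1 to 4 and at 53.4, 81.2, 65.5, 49.2 and 65.9 CPM in bleomycin 1 to 5. Bleomycin 2 was within the naive range, and the other 4 were below it. The log2 fold change was -0.30 (-0.59 to -0.005) with edgeR adjusted p = 0.143, and without bleomycin 2 it was -0.40 with adjusted p = 0.035. These intervals are not adjusted for the number of genes tested, which is why some exclude 0 while the adjusted p misses the threshold.

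Slc7a5, Slc7a1 and Slc38a2 did not pass after bleomycin. Slc7a5 was at 6.37 to 14.5 CPM in naive and 8.73 to 22.0 CPM in bleomycin, with a log2 fold change of 0.60 (-0.07 to 1.26, edgeR adjusted p = 0.198). Slc7a1 was at 9.39 to 11.5 CPM in naive, while bleomycin 1 to 5 spread from 4.64 to 18.8 CPM, on both sides of the naive range. Its log2 fold change was 0.31 (-0.37 to 0.99) and turned to -0.19 without bleomycin 1 and bleomycin 2. Slc38a2 had the narrowest interval of the 9, at 120 to 133 CPM in naive and 111 to 134 CPM in bleomycin, with -0.07 (-0.29 to 0.15, edgeR adjusted p = 0.707).

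**Figure D3:**
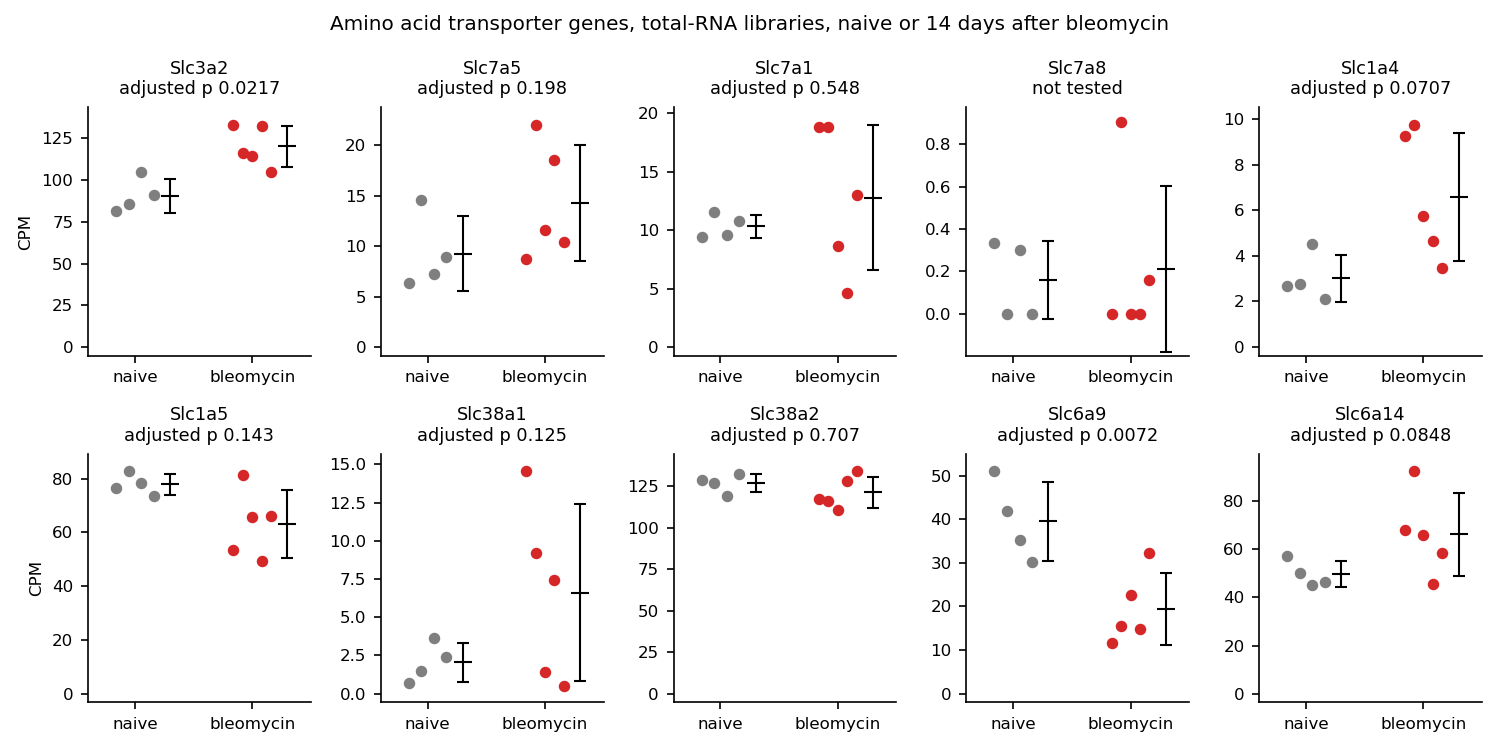
CPM of each gene in the 4 naive and 5 bleomycin libraries, 1 point per library in replicate order, with the group mean and SD beside the points and the edgeR adjusted p above each panel. Slc6a9 is lower in 4 of 5 bleomycin libraries than in every naive library, and Slc38a1 spreads from 0.475 to 14.5 CPM after bleomycin.

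Slc3a2 was thus called higher in both experiments, by 0.35 after ISRIB and 0.40 after bleomycin on the log2 scale, and no other gene of the set was called in both. Slc6a9 was at -0.14 after ISRIB and -1.001 after bleomycin, and Slc1a5 at -0.31 and -0.30. No test between the experiments was made, since drug, injury, time and kit all differ between them.

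**Figure D4:**
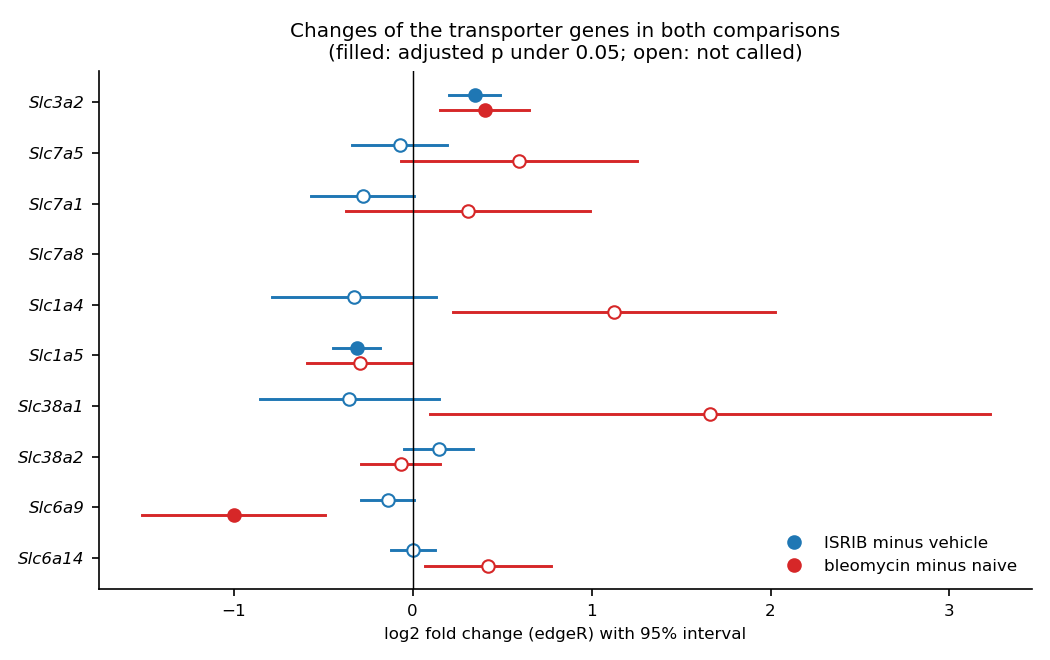
Log2 fold change of the 9 tested genes with 95% intervals, ISRIB against vehicle and bleomycin against naive; filled points passed the threshold. Slc3a2 and Slc1a5 are filled after ISRIB, Slc3a2 and Slc6a9 after bleomycin.

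Ratios of related genes within a library do not depend on scaling between libraries. The log2 ratio of counts was compared for Slc7a5 to Slc3a2, Slc1a5 to Slc1a4 and Slc38a2 to Slc38a1 in both experiments, with a two-sided exact permutation test and adjustment over these 6 comparisons. None passed. The glutamine exchanger to its relative, Slc1a5 to Slc1a4, went from a log2 ratio of 4.68 ± 0.42 in naive (SD, n = 4) to 3.33 ± 0.62 in bleomycin (n = 5), a difference of -1.35 with exact p = 0.0317 and adjusted p = 0.19. After ISRIB the same ratio differed by -0.07 (exact p = 0.743). The ratio of the light chain to its heavy chain, Slc7a5 to Slc3a2, differed by -0.41 after ISRIB (exact p = 0.143, adjusted p = 0.343) and by 0.19 after bleomycin (exact p = 0.603). That of Slc38a2 to Slc38a1 differed by 0.50 after ISRIB (exact p = 0.171, adjusted p = 0.343) and by -1.09 after bleomycin (exact p = 0.349). The smallest p these designs allow is 0.0286 for 4 against 4 and 0.0159 for 4 against 5. A lone ratio at that minimum would have an adjusted p of 0.171 or 0.0952 over the 6 comparisons and could not pass, so the absence of calls says nothing about whether the ratios differ.

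Among 59 other listed transporters of amino acids or peptides, 35 were tested after ISRIB and 2 were called, both higher (5.71%, against 2.2% of all genes). The lists too were chosen with earlier results of these data known, so these shares only describe them. Slc15a4, a lysosomal carrier of histidine and peptides, was at 38.3 to 45.2 CPM in vehicle and 50.01 to 57.7 CPM in ISRIB, a log2 fold change of 0.34 (edgeR adjusted p = 0.0166). Slc25a29, a mitochondrial carrier of basic amino acids, was at 6.93 to 9.51 and 10.7 to 13.5 CPM, with 0.58 (adjusted p = 0.0245). Neither gene's groups overlapped. Both calls were lost without vehicle 1 and without vehicle 2, and 1 of them without ISRIB 1, ISRIB 3 or ISRIB 4. None of the other SLC1, SLC6, SLC7 or SLC38 genes tested was called after ISRIB.

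After bleomycin, 33 of these 59 transporters were tested and 8 were called (24.2%, against 20.5% of all genes), 2 higher and 6 lower. Slc1a1, a glutamate and cysteine importer of the family of Slc1a5, was at 2.01 to 4.47 CPM in naive and 13.9 to 36.2 CPM in bleomycin, a log2 fold change of 2.66 (edgeR adjusted p = 3.30e-05). Slc7a6, a light chain that pairs with Slc3a2 and exchanges cationic for neutral amino acids, was at 1.79 to 5.03 and 4.64 to 22.0 CPM, with 1.80 (adjusted p = 0.00526). The groups of Slc1a1 were apart, and those of Slc7a6 met at bleomycin 4 and naive 1. Both genes passed the filter on low counts only with their bleomycin libraries.

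Slc7a2, the arginine importer related to Slc7a1, fell from 26.7 to 37.6 CPM in naive to 3.70 to 7.74 CPM in bleomycin, a log2 fold change of -2.49 (edgeR adjusted p = 7.71e-07). The estimate for Slc7a1 was 0.31 and missed the threshold. Slc38a4, a relative of Slc38a1 and Slc38a2, was at 41.3 to 45.6 CPM in naive and 12.96 to 26.2 CPM in bleomycin, with -1.08 (adjusted p = 5.84e-04). Slc43a2, a facilitative carrier of large neutral amino acids, was at 243 to 325 and 155 to 209 CPM, with -0.59 (adjusted p = 0.00198). The groups of all 3 were apart. The other lower genes were Slc7a4 (-0.97), Slc6a15 (-1.24), a neutral amino acid importer, and Slc1a2 (-1.26), a glutamate importer, with adjusted p of 0.0133, 0.0285 and 0.0369. Leaving out 1 library gave 6 to 9 calls, 2 to 3 higher and 3 to 7 lower, with 3 higher and 3 lower without naive 1. Without bleomycin 1 and bleomycin 2, 7 of the other transporters were called. The share of all genes called in that setting is not given here, so this count has no background to be read against.

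Genes that sense amino acids for mTORC1 or GCN2 were counted beside the carriers. After ISRIB, 1 of 29 tested was called (2.2% of all genes were): Castor2, a paralog of the arginine sensor, was at 28.9 to 32.3 CPM in vehicle and 21.1 to 24.1 CPM in ISRIB, with -0.38 (edgeR adjusted p = 0.0155). After bleomycin, 4 of 27 were higher and 4 lower (11.2% and 9.31% of all genes were). The higher genes were Rragd (0.95), a Rag GTPase, Sesn2 (0.85), a leucine sensor, Castor2 (0.73) and Lamtor3 (0.61), a subunit of the lysosomal Ragulator. The lower genes were Deptor (-1.17), an mTOR inhibitor, Flcn (-1.002) and its partner gene Fnip2 (-0.76), and Eif2ak4 (-0.52), which encodes GCN2. Their median log2 fold change was -0.02 after ISRIB and 0.06 after bleomycin.

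Of 20 listed genes linked to ATF4 that are not transporters, 19 were tested after ISRIB and 1 was called, lower (1.1% of all genes were): Psat1, a serine synthesis enzyme, with means of 11.7 and 6.59 CPM and a log2 fold change of -0.82 (edgeR adjusted p = 0.00945). Atf4 was at 72.2 ± 7.32 CPM in vehicle and 87.0 ± 6.45 CPM in ISRIB (SD, n = 4 each), with 0.27 and adjusted p = 0.069. Asns, the asparagine synthetase gene, was at -0.39 (adjusted p = 0.0652) and Mthfd2 at -1.02 (adjusted p = 0.0661), both with groups apart. Ddit3 had groups apart in the other direction, at 0.38 (edgeR adjusted p = 0.234). Cebpb was at 0.33 and Nupr1 at 0.26 (edgeR adjusted p = 0.0958 and 0.112). None of these genes besides Psat1 passed. After bleomycin, 3 of 16 were higher, Mthfd2 (1.63), Psat1 (1.47) and Shmt2 (0.79), all enzymes of serine or one-carbon metabolism, and 2 were lower, Nupr1 (-0.82) and Vldlr (-0.79). Over all genes 11.2% were higher and 9.31% lower. Psph, also a serine synthesis enzyme of the list, was at -0.37 (edgeR adjusted p = 0.705), and Phgdh, another, was below the filter. Mthfd2 was at 0.901 to 3.28 CPM in naive and 4.91 to 9.59 CPM in bleomycin. It passed the filter on low counts only with its bleomycin libraries, so a call of higher was favoured in advance. Atf4 was at -0.22 (adjusted p = 0.354) after bleomycin. The list medians were 0.04 after ISRIB and 0.18 after bleomycin.

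**Figure D5:**
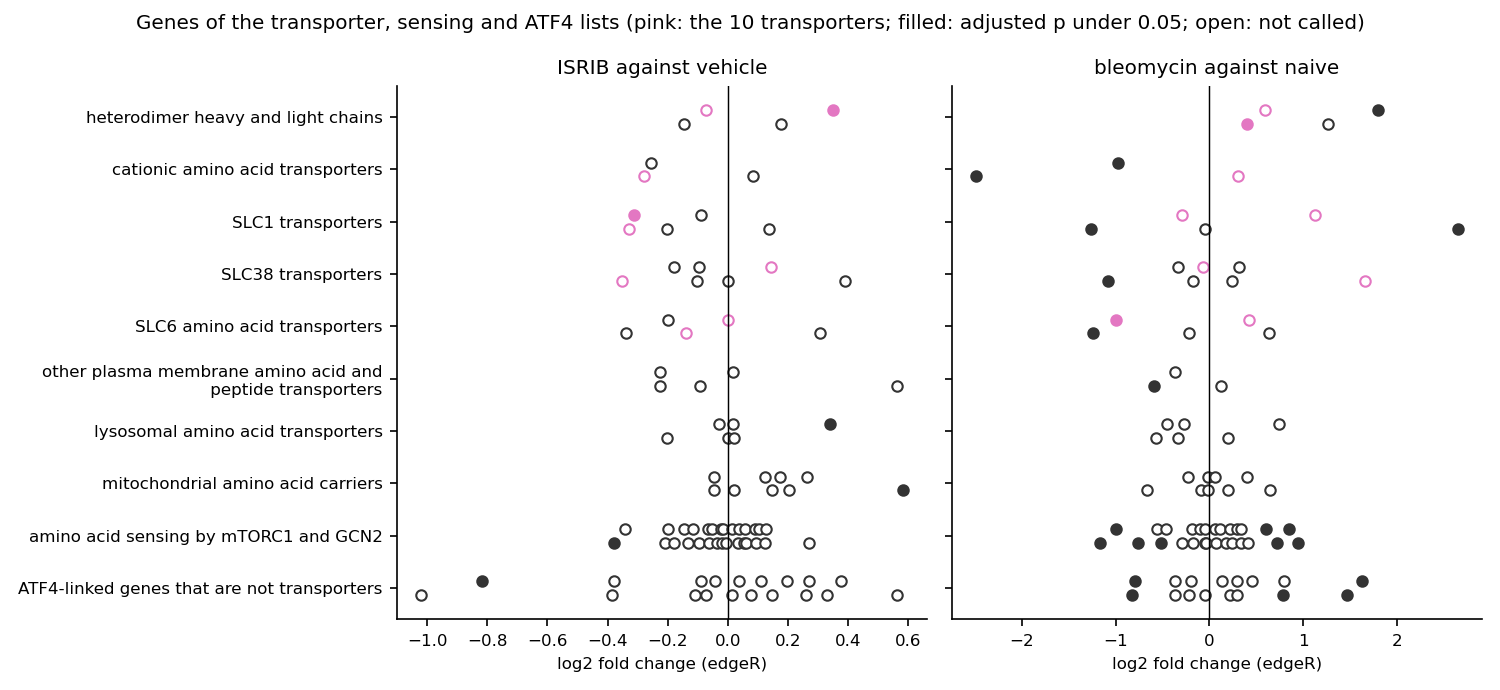
Log2 fold change of each tested gene of the transporter, amino acid sensing and ATF4-linked lists in both comparisons, 1 point per gene, with filled points past the threshold; the scales of the panels differ. After bleomycin the called transporters range from Slc7a2 at -2.49 to Slc1a1 at 2.66.

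Markers of other cell types were low beside the AT2 markers, and some were higher after bleomycin. For comparison, 11.2% of all genes tested were called higher after bleomycin and 9.31% lower. Of 7 alveolar type 1 markers 5 were called higher, with sums of 1267 to 1495 CPM in naive and 1784 to 2193 CPM in bleomycin. All 3 tested of 7 fibroblast markers were higher, and Lum was at 0 in every total-RNA library. Col1a1, Col1a2 and the type 1 marker Pdpn had naive means of 1.35, 1.25 and 1.34 CPM. They passed the filter on low counts only with their bleomycin libraries, so a call of higher was favoured in advance. The sum of 9 macrophage and monocyte markers without Lyz2, which AT2 cells express, was 16.9 to 28.5 CPM in naive and 41.8 to 72.9 CPM in bleomycin, with 1 of 3 tested called higher and Marco at 0. Endothelial sums were 19.4 to 27.3 and 20.4 to 75.1 CPM (2 of 5 tested called higher), airway sums 376 to 809 and 406 to 785 CPM (2 of 5 called higher), and lymphocyte sums at most 1.01 CPM. The part of these cells in the bleomycin values was not tested. After ISRIB none of the tested markers of these 6 cell types was called. Those tested were 7 of 7 alveolar type 1, 4 of 10 macrophage and monocyte, and 4 of 7 fibroblast markers. Of the rest, 6 of 6 endothelial and 4 of 7 airway markers were tested. For lymphocytes 0 of 6 were tested, so no call was possible. Of the 9 AT2 markers, 1 was called after ISRIB (2.2% of all genes were), Etv5 at -0.28 (edgeR adjusted p = 0.00817). After bleomycin 3 were called: Sftpd at 0.58 and Napsa at 0.40 were higher, and Etv5 at -0.43 was lower.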

How the data were processed

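Each kit has 1 table of raw counts, deposited by the authors, who used STAR 2.6.0 and HTSeq 0.11.2 after Trimmomatic 0.36, with mm10, per the submitters' processing notes. Strand setting and annotation were not stated there. Libraries were made from 3 ng (poly(A), NEBNext Ultra) or 0.35 ng (SMARTer Stranded Total RNA Pico v2) of RNA, per the labels' protocols. Symbols, positions and exon lengths came from GENCODE M21 (GRCm38), which held 42546 of the IDs.

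Low counts were removed by filterByExpr (at least 10, total at least 15), and the rest were TMM-scaled and tested with edgeR 4.0.16 (quasi-likelihood F test, two-sided, group only) in R 4.3.3, with Benjamini-Hochberg adjustment over all genes tested and a threshold of 0.05. CPM use effective library sizes. SE is the log2 fold change divided by the root of F. For ratios 0.5 was added to each count. The common biological coefficient of variation was 7.66% (ISRIB) and 21.1% (bleomycin). The procedure was also run on counts simulated from the means and fitted spread of these data, with independent libraries. Such counts hold no outlying libraries, so that run cannot show how the procedure behaves with them. Alternatives were RLE scaling, leaving out ribosomal-RNA-like and mitochondrial genes, no filter, DESeq2 1.42.0, limma-voom 3.58.1, a replicate block and leaving out libraries.

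The 10 genes and the lists were chosen with earlier results of these data known. All 10 were named, as were called genes of the transporter lists (at most 4 per list and direction, by lowest p). The sensing and ATF4-linked genes were named after their values were seen.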

Additional observations from a re-analysis of the deposited data

Results flagged for a closer look

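A library stood far from the rest of its group for 4 of the 40 combinations of gene and group examined, where chance gives about 1 in 20. Slc3a2 in ISRIB 2 was 185 CPM, against 226 to 231 CPM in the other ISRIB libraries. Without ISRIB 2 its log2 fold change was 0.42 (edgeR adjusted p = 8.89e-04). Slc1a4 in vehicle 3 was 8.19 CPM, against 3.98 to 4.65 CPM in the other vehicle libraries. Slc6a14 in vehicle 4 was 112 CPM, against 100.8 to 102 CPM. Slc7a8 in bleomycin 2 was 0.902 CPM, against 0 to 0.158 CPM in the other bleomycin libraries, a gene with 6 counts in that group in all.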

How the results depend on the processing

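After ISRIB 265 genes were called, with 408 by DESeq2, 648 with no low-count filter, 151 without ISRIB 2 and ISRIB 4, and 86 to 269 leaving out 1 library (86 without vehicle 1, 102 without vehicle 2, 159 without ISRIB 4). Among the 10 transporters, 1 to 2 were called leaving out 1 library, and 3 without ISRIB 2 and ISRIB 4. Of the other transporters, 0 to 2 were called leaving out 1 library and 4 without the filter. After bleomycin 2304 genes were called, and 1554 to 2584 leaving out 1 library. Among the 10 transporters 4 were called without the filter, and 1 to 4 leaving out 1 library (4 without bleomycin 4 or bleomycin 5). The share of all genes called without the filter after bleomycin is not given here. These counts therefore describe the settings and are not a result about the set. The log2 fold change of Slc6a14 after ISRIB turned to -0.0012 without ribosomal-RNA-like and mitochondrial genes, to -0.00029 without the filter, and ran from -0.031 to 0.035 leaving out 1 library. That of Slc7a5 after ISRIB ran from -0.17 to 0.037, and the Slc1a5 to Slc1a4 log2 ratio difference after ISRIB from -0.28 to 0.10, below 0 except without vehicle 2. Slc7a1 after bleomycin was -0.19 without bleomycin 1 and bleomycin 2. The causes were not tested. Same-numbered libraries did not deviate together (correlations of -0.109 to 0.0849 after ISRIB and -0.0393 to 0.0474 after bleomycin). With the replicate block, 277 and 2187 genes and 2 of the 10 transporters in each comparison were called. Slc7a8 had too few counts to be tested.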

Other observations

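Set beside the sum of 6 light chain genes of its dimers, per kilobase of exon, Slc3a2 was 5.24 to 6.74 times as high in the vehicle libraries, 5.55 to 9.40 in ISRIB, 4.56 to 9.64 in naive and 3.13 to 5.23 in bleomycin, with overlapping ranges in both comparisons.

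The genes whose log2 CPM, centred within each group, followed Slc3a2 most closely over the 8 poly(A) libraries were Idi1, Rcsd1 and Vdac2, each with Pearson's r = 0.98. Over the 9 total-RNA libraries they were Meis3 (0.98), Zzz3 (0.96) and Pcdhgc4 (0.95). Within the set, Slc38a2 had the highest r with Slc3a2 over the poly(A) libraries (0.74) and Slc38a1 over the total-RNA libraries (0.81). These are descriptions over few libraries that share depth and scaling, and none of these genes was called in the same comparison.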
